A study of Mus musculus with 4 samples.

Results

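Integrin genes of T-lineage cells, with 1 integrin ligand, were compared between CD4+CD8+ double-positive (DP) cells of normal thymus and DP cells of Notch1-IC tumours in the mouse. The 10 genes were Itgae, Itgb7, Itga4, Itgal, Itgb1, Itgb2, Itga6, Itgav, Itgb3 and Icam2. Every probe set (a group of short probes for one transcript) whose platform annotation gives 1 of these symbols was taken, which gave 27 of the 45037 probe sets on Affymetrix mouse expression arrays and 10 of the 18193 genes with a symbol. All 10 genes had at least 1 probe set, 3 of them exactly 1, and no probe set was shared with another symbol. There were 2 arrays per group. The normal group held DP thymocytes labelled wild type (WT). The tumour group held DP cells of a peripheral tumour (thymoma) that over-expresses Notch1-IC, the active intracellular part of the Notch1 receptor, with a genotype labelled T-ALL (T-cell acute lymphoblastic leukaemia). Both groups carry the label WT C57/BLACK6 as genetic background. The promoter or vector that drives Notch1-IC, the age of the mice and any pooling of animals are not stated in the labels. The sample type label calls even the 2 normal samples tumour cells, which their titles, source names and genotypes do not, and the groups follow the titles. Whether the 2 arrays of each group hold RNA of different mice is not stated. The p-values below therefore rest on the spread between samples, which may be technical, and not on a known spread between mice. That spread is taken in part from other probe sets.

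Integrins are adhesion receptors made of an alpha and a beta chain, and both chains are needed at the cell surface. They bind either matrix proteins such as fibronectin and laminin or counter-receptors on other cells such as the ICAMs, VCAM-1 and E-cadherin. Signals inside the cell switch them to a state of high affinity through talin, kindlin and the small GTPase Rap1. In the thymus they hold thymocytes to stromal cells and matrix during their migration, and in mature T cells they direct homing to tissue and contact with antigen-presenting cells.

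The labels were checked on the arrays. Notch1 had intensities of 1104 and 1098 in the normal arrays and 7155 and 6417 in the tumour arrays, a log2 fold change of 2.62 ± 0.073 (limma SE, n = 2 per group). Of 10 measured genes of T-lineage and DP identity, all were above background on all 4 arrays and 9 fell, among them Cd4 and Cd8a. Background was the highest of 27 control probe sets without target on an array, and lay between 12.3 and 17.8 intensity units. The ratio of 3' to 5' probe sets of beta-actin was 1.28 and 1.20 in the normal arrays and 2.46 and 2.53 in the tumour arrays, and whether this bears on the differences below was not tested. Spike controls, here the 14 bio probe sets for hybridization, lay 0.60 higher (log2) in the tumour arrays. Whether they follow the RNA put in was not tested. Scaling to them lowers every difference below by 0.60 and moves the median over all probe sets from -0.025 to -0.63. In bulk RNA, fewer cells of a type and less RNA per cell cannot be told apart. The tumours were peripheral and the normal cells thymic, so tissue site and transformation cannot be told apart.

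In the tumour arrays, the transcript of the CD103 chain Itgae and that of its partner Itgb7 rose. Those of LFA-1 (Itgal and Itgb2), of the LFA-1 ligand Icam2 and, on its brightest probe set, of the alpha 4 chain Itga4 fell. Among the called probe sets the largest differences were those of Itgae, 11.7-fold higher, and Icam2, 5.12-fold lower. With each gene represented by its brightest probe set, 3 genes rose, 4 fell and 3 did not pass, against 16.3% of all 18193 genes higher and 11.7% lower. Of the 27 probe sets 5 rose and 5 fell, against 11.3% higher and 11.5% lower among all 45037 probe sets. The groups did not overlap for 19 of the 27, against 56.7% of all probe sets. A filter was not applied, and 17 of the 27 lay above background on both arrays of at least 1 group, while 6 lay at or below it on all 4 arrays. All 10 called probe sets were among the 17. The shares over all genes and probe sets include dim ones. In an alternative fit of only the 22519 probe sets at or above the median level, 5439 rose and 5709 fell. Probe sets of the 10 genes gave 5 rises and 6 falls there. The median log2 fold change was -0.082 over the 10 genes and 0.088 over all genes.

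These calls come from limma with a variance prior that follows the level of expression and limits outlying variances, a setting chosen with the results of both priors known, at a Benjamini-Hochberg adjusted p below 0.05 over all probe sets. They rest on that prior: with limma's default prior 0 of 45037 probe sets passed, and 0 of the 27, although 11337 and 10 of them had an unadjusted p below 0.05. Scaled to the spike controls, 2 of the 27 rose and 10 fell, where 2074 of all probe sets rose and 11539 fell.

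**Figure D1:**
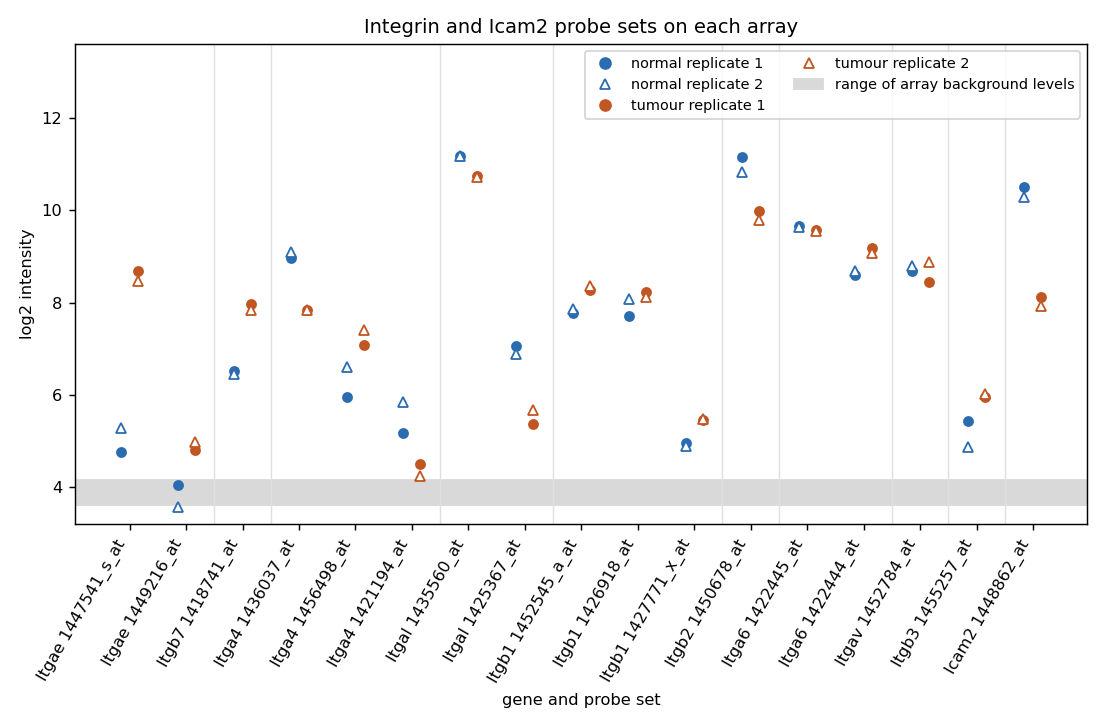
The plot shows log2 intensity (vertical axis) on each of the 4 arrays for the 17 probe sets above background on both arrays of a group. Blue marks are normal arrays, orange marks tumour arrays, circles replicate 1 and open triangles replicate 2, and the grey band spans the background levels of the 4 arrays. The groups stand far apart for Itgae 1447541_s_at and Icam2 1448862_at and overlap for Itgav 1452784_at.

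Itgae encodes the alpha E chain (CD103), which pairs with beta 7 and binds E-cadherin, and is known from intraepithelial and tissue-resident T cells. Its probe set 1447541_s_at had intensities of 27.2 and 39.2 in the normal arrays and 414 and 353 in the tumour arrays. Both tumour arrays lay far above both normal ones, which were themselves above background. The log2 fold change was 3.55 ± 0.22 (limma adjusted p = 4.01e-06), or 2.95 when scaled to the spike controls. The class _s_at marks probes that may also bind other transcripts. On the other Itgae probe set, 1449216_at, the intensities were 16.6 and 12.0 against 28.0 and 31.7, with 1 of the 2 normal arrays above background. The groups did not overlap there, and the difference of 1.08 ± 0.49 did not pass (adjusted p = 0.162). The call for Itgae thus rests on 1 probe set.

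Itgb7 encodes the beta 7 chain, the partner of both alpha E and alpha 4, and the alpha 4 beta 7 pair is the homing receptor for the gut. Its single probe set read 91.2 and 87.8 in the normal arrays and 250 and 228 in the tumour arrays. All 4 values were above background, the groups did not overlap, and the log2 fold change was 1.42 ± 0.16 (limma adjusted p = 0.000167), a 2.67-fold difference. It was 0.82 when scaled to the spike controls.

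Itga4 encodes the alpha 4 chain, which pairs with beta 1 to bind VCAM-1 and fibronectin and with beta 7 to bind MAdCAM-1. Its brightest probe set, 1436037_at, had intensities of 497 and 543 in the normal arrays and 231 and 228 in the tumour arrays. It fell by 1.18 ± 0.12 on the log2 scale (limma adjusted p = 6.74e-05), a 2.26-fold difference. A dimmer probe set, 1456498_at, went the other way, from 62.0 and 97.8 to 135 and 168. That rise was 0.95 ± 0.25 (adjusted p = 0.0204), or 0.35 when scaled to the spike controls (adjusted p = 0.373). It kept its call without normal replicate 2 (adjusted p = 0.0173) and lost it without any other single array (adjusted p from 0.0616 to 0.167). The remaining Itga4 probe sets, all dimmer, had lower values in both tumour arrays than in both normal ones and did not pass. Of these, 1421194_at, with intensities of 36.2 and 57.9 against 22.8 and 19.0, was above background on all 4 arrays (log2 fold change -1.14 ± 0.40, adjusted p = 0.0729). Another, 1450155_at, had 12.0 and 23.2 against 0.87 and 1.80, with 1 normal and 0 tumour arrays above background (adjusted p = 0.0676). The direction for Itga4 therefore depends on the probe set, and which transcript forms each one reads was not tested.

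Itgb7 and Itga4 encode partner chains whose brightest probe sets moved in opposite directions, and their promoters are shown for that reason. RefSeq's table for GRCm38.p6 matched 4 of the 10 genes (Itga4, Itgav, Itgb1 and Itgb7). The 250 bases before the start site are given 5′ to 3′ on the gene's strand, at chr15:102231936-102232185 on the minus strand for Itgb7 and at chr2:79255176-79255425 on the plus strand for Itga4. Capitals mark matches, on either strand, to the RBPJ core TGGGAA, the RUNX motifs TGTGGT and TGCGGT, the E-box CANNTG and the GC box GGGCGG.
Itgb7: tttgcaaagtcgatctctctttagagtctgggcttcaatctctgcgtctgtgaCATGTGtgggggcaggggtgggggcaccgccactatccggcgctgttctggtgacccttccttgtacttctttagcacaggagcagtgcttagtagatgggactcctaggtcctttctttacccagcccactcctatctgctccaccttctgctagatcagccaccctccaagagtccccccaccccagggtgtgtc
Itga4: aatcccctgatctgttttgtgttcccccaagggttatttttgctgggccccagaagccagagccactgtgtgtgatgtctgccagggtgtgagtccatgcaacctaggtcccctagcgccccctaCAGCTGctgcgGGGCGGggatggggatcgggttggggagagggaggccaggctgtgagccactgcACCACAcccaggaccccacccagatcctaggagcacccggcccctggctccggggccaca
Neither promoter held the RBPJ core, the DNA motif of the factor that carries Notch signals, which stands in 21.6% of the 32851 promoters in the table. Itga4 had 1 RUNX match, 60 bases before the start (18.6% of promoters have one), 1 E-box at 125 bases (66.2%) and 1 GC box at 114 bases (32.7%). Itgb7 had 1 E-box, at 197 bases, and no match to the other motifs. The Itgb1 promoter held a GC box alone, at 151 bases, and that of Itgav none of the motifs. None of these matches shared a base with another. A match is a description of the letters and not a site of binding.

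Itgb1 encodes the beta 1 chain, shared by the receptors for fibronectin, laminin and VCAM-1. On its representative probe set, 1452545_a_at, it read 219 and 233 in the normal arrays and 307 and 328 in the tumour arrays. The log2 fold change was 0.49 ± 0.13 (limma adjusted p = 0.0210), and -0.11 when scaled to the spike controls. The call ended when any single array was left out, with an adjusted p from 0.0654 to 0.125. The other bright probe set, 1426918_at, had 210 and 269 against 302 and 278. The groups did not overlap, and the difference of 0.29 ± 0.15 did not pass (adjusted p = 0.242). A dimmer one, 1427771_x_at, differed by 0.54 ± 0.33 (adjusted p = 0.304), and 3 more lay at or below background on all 4 arrays.

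Itga6 encodes the alpha 6 chain, which pairs with beta 1 in a laminin receptor. Its brighter probe set, 1422445_at, had intensities of 811 and 796 in the normal arrays and 766 and 749 in the tumour arrays. Tumour values were slightly lower on both arrays, and the difference of -0.085 ± 0.090 did not pass (adjusted p = 0.590; 95% interval, unadjusted, -0.29 to 0.12). The other, 1422444_at, had 390 and 410 against 582 and 537, a rise of 0.48 ± 0.11 (adjusted p = 0.00924). Scaled to the spike controls the first probe set fell by 0.69 (adjusted p = 0.000255) and the second differed by -0.12 (adjusted p = 0.476). The rise of 1422444_at was lost when normal replicate 1 (adjusted p = 0.0679) or tumour replicate 1 (adjusted p = 0.0924) was left out.

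The genes of LFA-1, the main leukocyte integrin, and of its ligand Icam2 fell together. Icam1, another ligand of LFA-1, had intensities of 104 and 107 in the normal arrays and 82.6 and 82.8 in the tumour arrays. Its difference of -0.35 ± 0.20 did not pass (limma adjusted p = 0.265). Itgal encodes the alpha L chain, and its brighter probe set, 1435560_at, had intensities of 2316 and 2304 in the normal arrays and 1716 and 1681 in the tumour arrays. Replicates were close and the groups far apart for their size, with a fall of 0.44 ± 0.070 on the log2 scale (limma adjusted p = 0.00119). Its dimmer probe set, 1425367_at, had 134 and 119 against 41.5 and 50.8 and fell by 1.46 ± 0.23 (adjusted p = 0.00126). The direction was the same on both and the size was not. Itgb2 encodes the beta 2 chain, which is shared with the myeloid integrins. It had intensities of 2290 and 1831 against 1005 and 880 and fell by 1.12 ± 0.12 (adjusted p = 8.24e-05), a 2.18-fold difference.

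Icam2, a small adhesion protein that binds LFA-1 and is found on lymphocytes, platelets and endothelium, had intensities of 1441 and 1243 in the normal arrays and 280 and 243 in the tumour arrays. The lowest normal value was several times the highest tumour value. The log2 fold change was -2.36 ± 0.12 (limma adjusted p = 9.93e-07), the lowest adjusted p of the 27 probe sets. Endothelial markers were measured beside it: of 12, 6 lay at or below background on all 4 arrays, among them Kdr, and only Pecam1 was called, which fell by 0.76 ± 0.17 and is also made by leukocytes. Their summed intensity ran from 329 to 418 in the normal arrays and from 280 to 306 in the tumour arrays. The largest part of it was Pecam1 (302 and 229 against 155 and 156). Egfl7, the other marker above background on all 4 arrays, had 31.0 and 26.6 against 52.8 and 52.9 and did not pass (limma adjusted p = 0.0814).

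Itgav encodes the alpha V chain, which binds vitronectin and fibronectin and activates TGF-beta. Only 1 of its 5 probe sets was above background on both arrays of a group. It read 413 and 444 in the normal arrays and 348 and 474 in the tumour arrays, and the tumour arrays spanned the normal ones. The difference was -0.078 ± 0.15 (adjusted p = 0.791), with an unadjusted 95% interval from -0.42 to 0.26, and -0.68 when scaled to the spike controls (adjusted p = 0.00942). The other Itgav probe sets were dim and none of them passed; 1432678_at had 1.02 and 9.22 against 17.2 and 19.0 (adjusted p = 0.191). Itgb3 encodes the beta 3 chain, known from platelets and macrophages and a partner of alpha V. Its brighter probe set had 43.4 and 29.1 against 61.7 and 64.5. The groups did not overlap, and the difference of 0.83 ± 0.31 did not pass (adjusted p = 0.0935). The other Itgb3 probe set, 1421511_at, lay at or below background on all 4 arrays. Of 8 platelet and megakaryocyte markers, Pf4 and Clec1b rose, none was above background on both normal arrays and 3 were on both tumour arrays. Their summed intensity was 82.8 and 96.2 in the normal arrays and 225 and 160 in the tumour arrays, and their part in the value of Itgb3 was not tested.

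**Figure D2:**
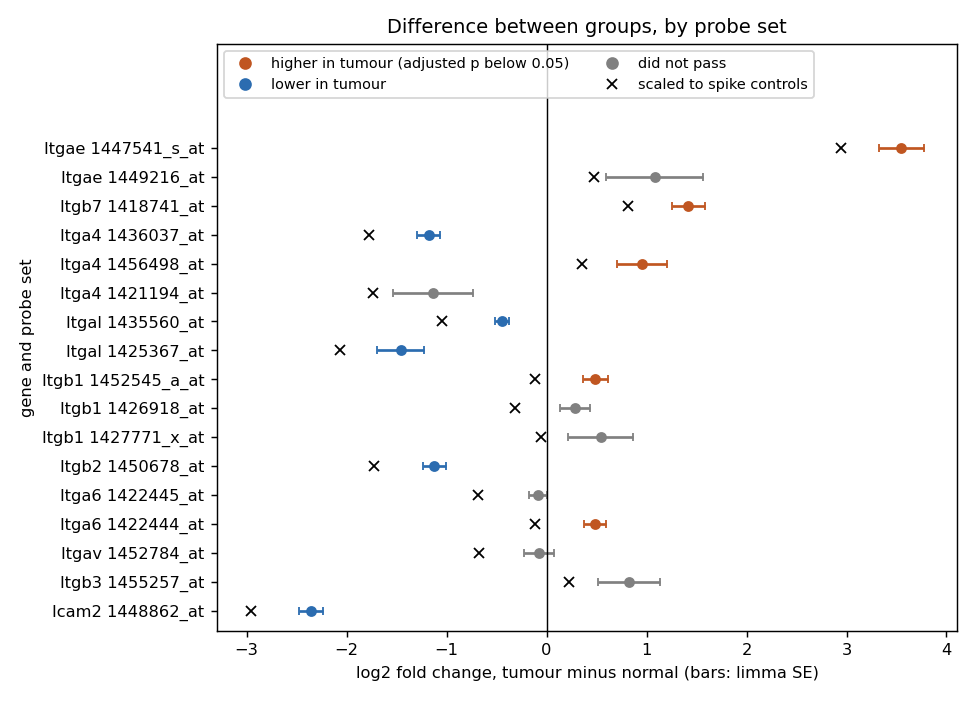
The plot shows the log2 fold change, tumour minus normal (horizontal axis), of the same 17 probe sets, with limma's SE as bars. Orange points rose, blue points fell and grey points did not pass, and crosses give the value scaled to the spike controls. Crosses lie 0.60 to the left of the points, which puts Itgb1 and Itga6 1422444_at on the other side of 0.

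The change of partner chains relative to each other depended on the probe set. Within an array, the log2 ratio of the probe sets of 2 chains is not touched by a scaling that shifts all genes alike, and its change shows unequal change of what the probe sets read, not the relative amounts of the chains. On the representative probe sets, the ratio of Itgae to Itgb7, set to a mean of 0 in the normal arrays, was -0.29 and 0.29 there and 2.18 and 2.08 in the tumour arrays, a 4.38-fold shift towards Itgae. With the dim Itgae probe set 1449216_at the tumour arrays gave -0.49 and -0.18, and the groups overlapped. For Itga4 over Itgb7 the values were -0.091 and 0.091 against -2.66 and -2.54, a 6.05-fold shift towards Itgb7. It was 5.87-fold with Itga4 1421194_at, and 1.38-fold with overlapping groups with 1456498_at, the Itga4 probe set that rose. Itga4 against Itgb1 shifted 3.17-fold towards Itgb1, and 1.38-fold towards Itga4 with 1456498_at. Itgal over Itgb2 moved from -0.16 and 0.16 to 0.60 and 0.76, a 1.60-fold shift towards Itgal. With the other called Itgal probe set, 1425367_at, it moved to -0.58 and -0.10, a 1.26-fold shift towards Itgb2. For all 7 pairs the groups did not overlap on the representative probe sets, where an exact permutation test gives p = 0.333 (two-sided), the smallest that 2 arrays against 2 allow. No model was fitted to the ratios.

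**Figure D3:**
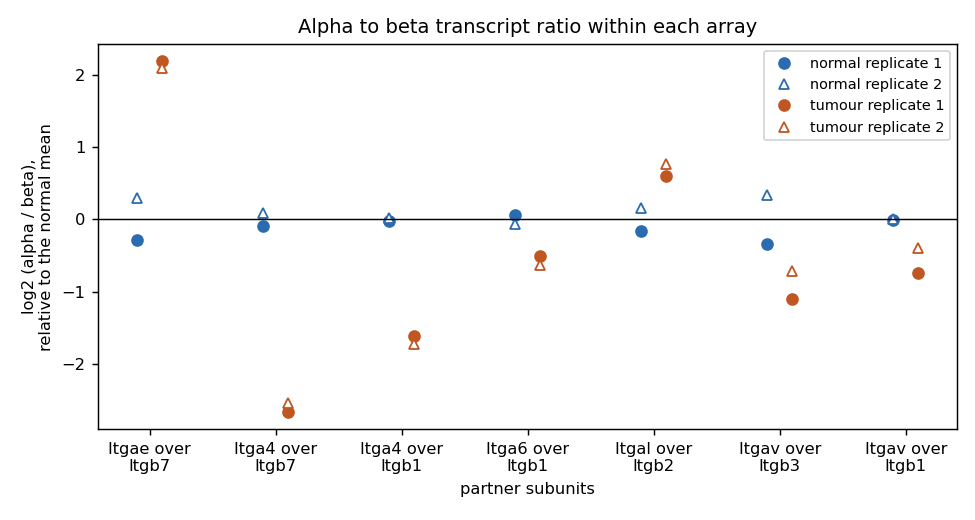
For 7 alpha and beta partner pairs, the plot shows the log2 ratio of the alpha to the beta transcript on each array (vertical axis), relative to the mean of the 2 normal arrays, on the representative probe set of each gene. Blue marks are normal and orange marks tumour arrays. The tumour arrays lie near 2.1 for Itgae over Itgb7 and near -2.6 for Itga4 over Itgb7, and with other probe sets of Itgae, Itga4 or Itgal some of these shifts shrink or turn.

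The genes whose 4 log2 values, centred on their own mean, lay closest to those of a member were searched among 9307 genes above background on all 4 arrays. For Itgae it was Jdp2, at a Euclidean distance of 0.124 (log2 fold change 3.50), the single gene within a distance of 0.25, followed by Gm4371 at 0.272. The closest to Icam2 were Cdkn1c at 0.129 and Wnt8b at 0.134, with 16 genes within 0.25. Itgb7 was closest to Adk (0.0479) and Tacc2 (0.0575), Itga4 to Rmnd5a (0.0416) and Arl3 (0.0533), and Itgb2 to Gtf2ird1 (0.0186) and Tmc6 (0.0578), with 195, 220 and 151 genes within 0.25. The nearest to Itgal were 3110009E18Rik (0.00682) and Zup1 (0.0187), and to Itgb1 Trp53bp2 (0.0205) and Gfpt1 (0.0230). Those to Itga6 were Zfx (0.0201) and Pi4ka (0.0211), to Itgav Zfp39 (0.0467) and 2810021J22Rik (0.0643), and to Itgb3 Prf1 (0.0650) and Tfcp2 (0.0945). The number of genes within 0.25 ran from 1 for Itgae to 1478 for Itga6. Such a distance is never smaller than the difference in log2 fold change, so the nearest genes are those of like change. Genes that rose from background were not among the 9307 searched, which limits the count for Itgae.

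Of 16 other integrin subunits measured, 4 rose and 0 fell, against 16.3% of all genes higher and 11.7% lower. Their median difference was -0.26 (log2), and 3 lay at or below background on all 4 arrays. Scaled to the spike controls 4 rose and 1 fell, with a median of -0.86. Itga9, whose alpha 9 chain pairs with beta 1 and binds VCAM-1 and tenascin, rose from 20.6 and 17.5 to 279 and 305, a log2 fold change of 3.94 ± 0.23 (limma adjusted p = 2.37e-06). Itgb5, a partner of alpha V, rose by 1.70 ± 0.23, and Itgax, the CD11c chain of dendritic cells and macrophages, by 1.95 ± 0.36. The fourth, Itga8, was at or below background on all 4 arrays. Itgam, the CD11b chain of myeloid cells and a partner of beta 2, had 13.3 and 18.1 against 21.9 and 0.58, around background in both groups. These values stood beside 11 macrophage markers, of which 9 rose and 0 fell, with a summed intensity of 104 to 145 in the normal and 2192 to 2373 in the tumour arrays. Csf1r rose by 4.94 ± 0.20, and C1qa, not above background in either normal array, was at least 16.3-fold higher in tumour cells. Of 11 neutrophil markers 8 rose and 0 fell (summed intensity 204 to 267 against 2200 to 2239). Of 9 dendritic cell markers 2 rose and 0 fell (255 to 278 against 815 to 964), with Xcr1, Batf3 and Cd209a at or below background on both normal and 1 of the 2 tumour arrays. Of 10 thymic stromal and epithelial markers 2 rose and 1 fell (188 to 192 against 3208 to 3642, nearly all of it Pdgfrb). The part of such cells in the values of any integrin gene was not tested. B cell markers gave 0 rises and 1 fall of 6 (354 to 369 against 122 to 133), and NK markers 4 rises and 0 falls of 7 (1143 to 1147 against 5412 to 5436). Most of the B cell sum in the normal arrays was Cd79b (321 and 294). Nearly all of the NK sum was Gzma (1034 and 1035 against 5030 and 5040). Cd79a, Pax5 and the NK marker Ncr1 lay at or below background on all 4 arrays.

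Of 17 integrin ligands measured, 4 rose and 1 fell, against 16.3% of all genes higher and 11.7% lower, with a median of 0.61. Scaled to the spike controls 4 rose and 2 fell, with a median of 0.009. Vcam1, the ligand of alpha 4 beta 1 and alpha 9 beta 1, was not above background in either normal array and read 164 and 244 in the tumour arrays, at least 14.3-fold higher (limma adjusted p = 0.000248). Cdh1, or E-cadherin, the ligand of alpha E beta 7, had 6.80 and 14.5 against 160 and 156, with 1 of the 2 normal arrays above background (log2 fold change 3.99 ± 0.40, adjusted p = 7.03e-05). Lamb1, a laminin chain, was at least 9.25-fold higher. Lamc1, another laminin chain, was at least 2.72-fold lower, with both tumour arrays at or below background. These 4 kept their direction when scaled to the spike controls.

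Genes of integrin activation went both ways. Of 15 measured inside-out genes, 3 rose and 5 fell, against 16.3% of all genes higher and 11.7% lower. Their median was -0.095, and scaled to the spike controls 1 rose and 10 fell. Skap1, an adaptor that links the T-cell receptor to Rap1, fell from 2151 and 2214 to 704 and 699 (log2 fold change -1.64 ± 0.079, limma adjusted p = 8.04e-07). Its relative Skap2 fell by 1.02 ± 0.25 and Rap1b, a gene of the GTPase Rap1, by 0.79 ± 0.056. Rap1a, the other gene of Rap1, differed by -0.095 ± 0.066 and did not pass (limma adjusted p = 0.387). Rassf5, whose RAPL form carries Rap1 signals to LFA-1, rose by 0.74 ± 0.073, and Rapgef1, an exchange factor for Rap1, by 0.76 ± 0.096. Scaled to the spike controls those rises were 0.14 and 0.16 and did not pass (adjusted p = 0.180 and 0.286). Tln2, a talin, was at least 1.90-fold higher from background. Tln1, the main talin of leukocytes, differed by 0.092 ± 0.098 and did not pass (adjusted p = 0.596). Fermt3, a kindlin, fell by 0.37 ± 0.059 (limma adjusted p = 0.00121). Of 6 inhibitors of integrin activation, 1 rose and 4 fell, against the same shares of all genes, with a median of -0.79. Scaled to the spike controls 0 rose and 4 fell, with a median of -1.39. Sipa1, which switches Rap1 off, fell by 1.25 ± 0.22, Flna, filamin A, by 0.82 ± 0.10, and Itgb1bp1, or ICAP-1, by 0.76 ± 0.10. Dok1, a competitor of talin, rose by 0.64 ± 0.16 (adjusted p = 0.0163), and by 0.041 when scaled to the spike controls (adjusted p = 0.889).

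Downstream of the receptors, 4 of 20 measured genes rose and 8 fell, against 16.3% of all genes higher and 11.7% lower. The median was -0.23, and scaled to the spike controls 2 rose and 12 fell. Vcl, vinculin, which ties adhesions to actin, rose from 38.6 and 41.7 to 214 and 219 (2.43 ± 0.20, limma adjusted p = 1.85e-05). Fyn, a Src-family kinase, rose by 1.52 ± 0.11 and Ptk2b, the adhesion kinase Pyk2 of haematopoietic cells, by 0.84 ± 0.11. The rise of Ptk2b did not pass when scaled to the spike controls (0.24, adjusted p = 0.139). Zyx, zyxin, fell by 1.27 ± 0.16, Rac2, the Rac GTPase of blood cells, by 1.11 ± 0.079 and Ilk, the integrin-linked kinase, by 1.11 ± 0.12.

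TGF-beta is known to induce Itgae in T cells through Smad3, and Runx3 is known to act on CD103 in CD8 T cells. Of 12 measured genes of this axis, 4 rose and 4 fell, against 16.3% of all genes higher and 11.7% lower. The median was 0.36, and scaled to the spike controls 2 rose and 5 fell. Smad3 rose from 517 and 528 to 1656 and 1629 (log2 fold change 1.65 ± 0.085, limma adjusted p = 1.18e-06) and Runx3 from 96.7 and 78.4 to 237 and 257 (2.83-fold, adjusted p = 0.00019). Both also rose when scaled to the spike controls, by 1.05 and 0.90. Of the receptors, Tgfbr3 fell by 2.91 ± 0.22 and Tgfbr1 by 0.52 ± 0.11, while Tgfbr2 rose by 0.41 ± 0.096 (-0.20 scaled to the spike controls). Tgfb1, the ligand, fell by 0.91 ± 0.18 (adjusted p = 0.00539).

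**Figure D4:**
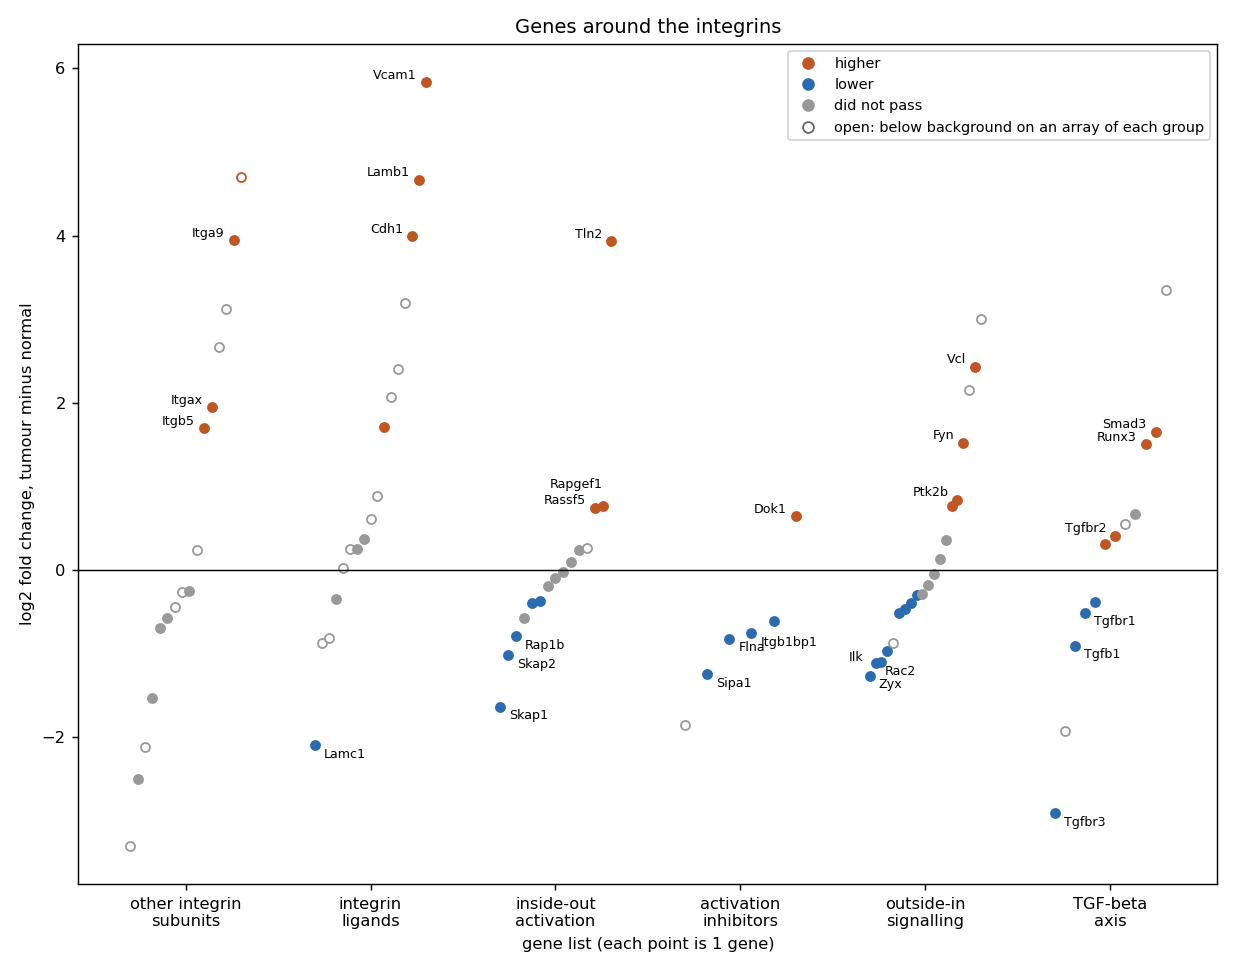
Each point is 1 gene of 6 lists (horizontal axis), with its log2 fold change, tumour minus normal, on the vertical axis. Orange genes rose, blue genes fell, grey genes did not pass, and open circles were at or below background on at least 1 array of each group. Itga9, Vcam1, Lamb1 and Cdh1 lie highest among named genes of the first 2 lists, and Tgfbr3 lies lowest in the last. Scaled to the spike controls every point lies 0.60 lower. Tgfbr2 is the only named gene that then changes sign, and some genes without a name do so too.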

How the data were processed

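Biotin-labelled cRNA of 4 samples was read on 4 Affymetrix arrays, per the labels' protocols. The deposited values are linear intensities between 0.08 and 19270, and the submitters' processing notes name RMA without a version. Values below 1 are unusual for RMA, so the summary of the probes is not settled. From these intensities log2 was taken with no offset or filter, and 64 control probe sets were left out. limma 3.58.1 in R 4.3.3 (lmFit, eBayes with trend and robust) was fitted on 45037 probe sets, two-sided, with Benjamini-Hochberg adjustment. This prior was made the main one with the results of both priors known; the median replicate SD (log2) was 1.31 among the dimmest 25% of probe sets and 0.10 among the brightest 25%. Only probe sets with 1 symbol (34945) named genes. The probe set of highest mean log2 stood for a gene. A group with no array above background was raised to its background level, and the fold is then "at least N-fold". Members and lists were chosen with earlier results of these data known. Genes of the lists were named by the largest called change, up to 3 per direction, above background on both arrays of the higher group. Some others are given beside them. The script was tested on simulated data. The number of arrays limits the precision.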

Additional observations from a re-analysis of the deposited data

How the results depend on the processing

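Across 16 alternatives, 218 of 255 values of the 17 brighter probe sets kept direction and side of the threshold, 26 kept direction and lost a call, 6 gained one and 5 changed sign, 2 of which also lost their call. With the default variance prior, 0 probe sets and 0 genes rose or fell. Fitted per gene with that prior (chosen after seeing the data), 2 genes rose and 1 fell: Itgae (adjusted p = 0.0391), Itgb7 (0.0454) and Icam2 (0.0388) passed. Scaled to the spike controls, 2 probe sets rose and 10 fell, and the Itgb1 probe sets gave -0.11, -0.32 and -0.057 and Itga6 1422444_at -0.12. At a threshold of 0.01, 3 probe sets rose. Without _s_at, _x_at and _a_at probe sets, 3 probe sets and 1 gene rose. Leaving out 1 array left 2 to 4 higher and 5 lower probe sets: 2 higher without normal replicate 1 or tumour replicate 1, and 3 without tumour replicate 2. Itgav ran from -0.30 to 0.15. These losses come with fewer arrays or fewer probe sets, and the cause of the others was not tested. With the replicate number as a block (replicate block), 5 probe sets rose and 7 fell. The labels do not say whether a shared number marks a shared batch. Deviations of same-numbered arrays correlated at 0.25 across 10772 probe sets, and both replicate 1 arrays had the higher background of their group. With other probe sets (chosen after seeing the data), 3 of 13 partner ratios changed sign, to -0.34 for Itgae over Itgb7, 0.47 for Itga4 over Itgb1 and -0.34 for Itgal over Itgb2, and 5 moved by more than the replicate SD. Signals near background limit 10 of the 27 probe sets.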

Other observations

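Itga8, an integrin chain that pairs with beta 1, passed the test with a log2 fold change of 4.71 ± 1.34 (limma adjusted p = 0.0313) although all 4 arrays lay at or below background, with intensities of 0.87 and 0.28 against 13.7 and 12.1. With no array above background, no bound on the fold is given for it, and the size of the difference is not interpreted. The Itga4 probe set 1427615_at had 4.38 and 9.82 against 0.47 and 0.47, all below background, and did not pass (adjusted p = 0.0561).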
